A study of Mus musculus with 7 samples.

Results

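Clustered replication-dependent histone genes were followed in microglia from WT grafts and from the cortex around them. They were taken by name, as the gene names that begin with Hist1h, Hist2h, Hist3h or Hist4h and are not marked as pseudogenes, which gave 69 of 55341 gene names. Of these, 6 encode the linker histone H1, 20 encode H2A, 18 encode H2B, 12 encode H3 and 13 encode H4. On the GRCm38 assembly 56 belong to the Hist1 cluster on chromosome 13, 10 to Hist2 on chromosome 3, 2 to Hist3 on chromosome 11 and 1, Hist4h4, stands alone on chromosome 6. GENCODE M21 calls 2 of them, Hist1h2aj and Hist1h2al, pseudogenes although their names do not, and both were kept by the rule on names.

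Cortical neurons of C57BL/6 WT embryos had been injected into the neocortex of 5xFAD mice on a C57BL/6 background, and microglia were collected 4 weeks after injection from mice whose labelled age was 14 weeks. The 5xFAD recipients co-express human APP with the Swedish, Florida and London mutations and human PS1 with a pair of familial mutations, both from the neuron-specific Thy1 promoter, so all libraries carry the same transgenes and none comes from a mouse without them or without a graft. CD11b+CD45low cells were sorted from the dissected graft (inside, 3 libraries) and from pieces of nearby cortex (outside, 4 libraries). The labels do not say which inside and outside samples came from the same mouse or whether mice were pooled, so the spread given here is that between libraries.

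Most histone protein is made in S phase, when new DNA has to be wrapped, and its mRNA comes from the clustered genes. These genes typically lack introns, and their mRNAs end not in a poly(A) tail but in a short stem-loop that is bound by SLBP, the stem-loop binding protein, and trimmed with the help of the U7 snRNP. Variant histones such as H2A.Z and H3.3 come from genes elsewhere, have poly(A) tails and are made throughout the cell cycle. Some clustered genes can also give longer, polyadenylated mRNA, which has been described in cells that no longer divide. The first cDNA strand was primed here with oligo(dT), and mRNA without a poly(A) tail is poorly copied by such a primer, so the counts need not follow the total amount of histone mRNA.

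A stem-loop of 16 bases, a stem of 6 paired bases beginning GG around a loop of 4 bases beginning T, was looked for within 150 bases after the stop codon of the GENCODE M21 transcripts, and was matched in 46 of 69 members. It began 21 to 58 bases after the stop codon, and all 6 stem positions were paired in every match. Only 8 forms occurred, and 1 of them, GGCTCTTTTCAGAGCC, was that of 26 members. The stem-loops of the member with the highest mean level in each class, and of Hist4h4, are printed here because the end of the mRNA decides what an oligo(dT) primer can reach, with the stem-loop in capitals, 5′ to 3′ on the strand of the gene.
Hist1h1c (H1, capitals at chr13:23739512-23739527, plus strand): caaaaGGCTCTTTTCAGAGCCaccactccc
Hist3h2a (H2A, capitals at chr11:58955172-58955187, plus strand): ccaaaGGCTCTTTTCAGAGCCacccacaac
Hist1h2be (H2B, capitals at chr13:23585531-23585546, minus strand): ccaaaGGCTCTTTTCAGAGCCacccaacag
Hist1h3d (H3, capitals at chr13:23576244-23576259, plus strand): ccaaaGGCTCTTTTCAGAGCCacccccgtt
Hist1h4d (H4, capitals at chr13:23581950-23581965, plus strand): ccaaaGGCCCTTTTCAGGGCCactaccttc
Hist4h4 (H4, capitals at chr6:136803998-136804013, minus strand): acaaaGGCCCTTTTCAGGGCCcacaaagca
The 4 members of H1, H2A, H2B and H3 shared the common form, and both H4 genes had the form in which the stem holds GGCCC.

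All 6 of these transcript models run on past the stem-loop, for 840 bases in Hist1h1c, 1643 in Hist3h2a, 1861 in Hist1h2be, 752 in Hist1h3d, 770 in Hist1h4d and 2445 in Hist4h4. Models were called long where a transcript went more than 100 bases past the stem-loop or, with no stem-loop matched, more than 150 bases past the stop codon, which held for 27 members, and the other 42 were called short. Of the short models 23 ended by the stem-loop, 17 had no stem-loop matched, in 13 of which the model stops at the stop codon, and 2 had no coding transcript. The poly(A) signal AATAAA lay within the last 40 bases of at least 1 transcript in 14 of 27 members with long models (51.9%). With short models it did so in 1 of 42 members (2.4%). In Hist1h2be the transcript with the signal was not a coding one, and its coding transcripts lacked the signal. The share was 39.3% of all 58797 coding transcripts of the annotation, but that is a share of transcripts and not of genes. The signal is shown in capitals near the end of 3 highly counted long models, those of Hist1h1c, Hist3h2a and Hist2h2be.
Hist1h1c (capitals at chr13:23740342-23740347, plus strand): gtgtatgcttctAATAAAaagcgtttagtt
Hist3h2a (capitals at chr11:58956797-58956802, plus strand): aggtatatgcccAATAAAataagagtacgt
Hist2h2be (capitals at chr3:96223717-96223722, plus strand): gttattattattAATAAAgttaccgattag
In Hist1h1c the signal lay 20 bases before the end of the model, in Hist3h2a 28 and in Hist2h2be 16. All printed bases are in the 3′ UTR of the last exon, and a match of letters does not show that a site is used.

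The clustered histones took a small part of the counts, and nearly all of that part fell on long models. Total counts ran from 23241114 to 25882122 per library inside and from 18644807 to 24599193 outside, of which the 69 members held 4769 to 5260 counts inside and 4119 to 5413 outside, or 0.0169% to 0.0238% of a library. Long models held 97.8% of all histone counts and short models 2.24%. The 5 members with the highest means, Hist3h2a, Hist1h1c, Hist1h2be, Hist1h2bc and Hist1h4d, held 76.2% of the histone counts. The deposited table has 1 count per gene and library, so where along a model the reads lay is not known here.

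Reads that align to several places were not counted, and the members differ widely in how much of their sequence is their own. The share of 75-base windows of a model that is found at 1 genome position among all GENCODE transcripts ran from 37.4% to 100% in the 23 members with enough counts to test, with a median of 86.1%. In the 30 members with fewer counts it ran from 6.53% to 100% with a median of 50.7%, and in the 16 members without a count in any library it ran from 0% to 100% with a median of 25.5%. The groups therefore overlap. Hist2h2aa2 (0%) and Hist2h2aa1 (3.91%) are near-identical copies and had no count in any library, which says nothing of their expression. Hist1h1t and Hist1h2aa, known from the testis, and Hist2h2bb were unique over 100% of their windows and also had no count, but exons of other genes overlap Hist1h2aa (Gm44344) and Hist2h2bb (Gm42743 and Gm20628). Exons on the opposite strand overlap 20 of 20 H2A members, against 0 of 6 for H1, 1 of 18 for H2B, 1 of 12 for H3 and 1 of 13 for H4, and 7 of 69 members share bases with an exon of another gene on their own strand. The counting ignored strand and gave a read to the gene that it overlaps most, by the settings in the header of the counts. How reads lying wholly within both genes were treated was not tested, so the counts of all H2A members, and the zeros of the overlapped ones, are uncertain. A count of 0 allows up to 3 counts, which is 0.118 to 0.16 CPM depending on the library (counts per 1000000 of the scaled library total), for counting error only.

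**Figure D1:**
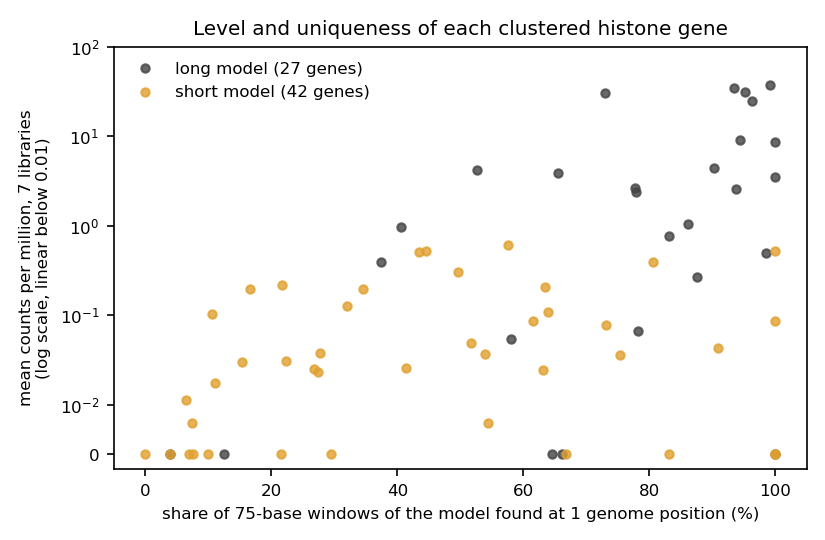
Mean CPM over 7 libraries of each of the 69 members (vertical axis, log scale, linear below 0.01) against the share of 75-base windows of its model found at 1 genome position (horizontal axis, percent), for 27 long (grey) and 42 short models (yellow). The 5 members with the highest means are long models that are unique over 72.9% to 99.2% of their windows, and members at 0 CPM are found at both ends of the horizontal axis.

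No clustered histone gene passed the test between inside and outside. After edgeR's filter on low counts 23 of 69 members were among the 15257 genes tested, 19 with long and 4 with short models. With limma's voomWithQualityWeights 0 of 23 members had an adjusted P below 0.05, against 0.492% of all genes tested, and 0 passed the stricter 0.01, against 0.0197%. With edgeR's quasi-likelihood test 0 of 23 passed 0.05, against 0.0983% of all genes, and 0 passed 0.01, against 0%. At these backgrounds less than 1 call among 23 genes would have matched the share of all genes, so a count of 0 does not set the members apart. An unadjusted P below 0.05 was reached by 1 of 23 members (4.35%) with voomWithQualityWeights, against 12.2% of all genes, by 0 of 23 with edgeR, against 9.55%, and by 0 of 23 with the DESeq2 Wald test, against 11.1%. The smallest adjusted P among the members was 0.314 for Hist4h4 with voomWithQualityWeights and 0.597 for Hist3h2a with edgeR.

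The members did not lean to one side. With voomWithQualityWeights 12 of 23 were higher inside and 11 lower, with a median log2 fold change (inside minus outside) of 0.01, while 48.3% of all genes tested were higher inside, with a median of -0.01. With edgeR the median of the members was 0.09, and 4 members, Hist1h4d, Hist1h2ac, Hist1h3e and Hist1h4h, had the opposite sign in the 2 fits. Every inside library stood above every outside library in 0 of 23 members, against 5.65% of all genes, and below in 2 of 23 (8.7%), Hist3h2a and Hist4h4, against 5.02%. The 95% interval of the log2 fold change lay between -1 and 1, within a 2-fold change either way, for 6 of 23 members (26.1%), against 58.1% of all genes.

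**Figure D2:**
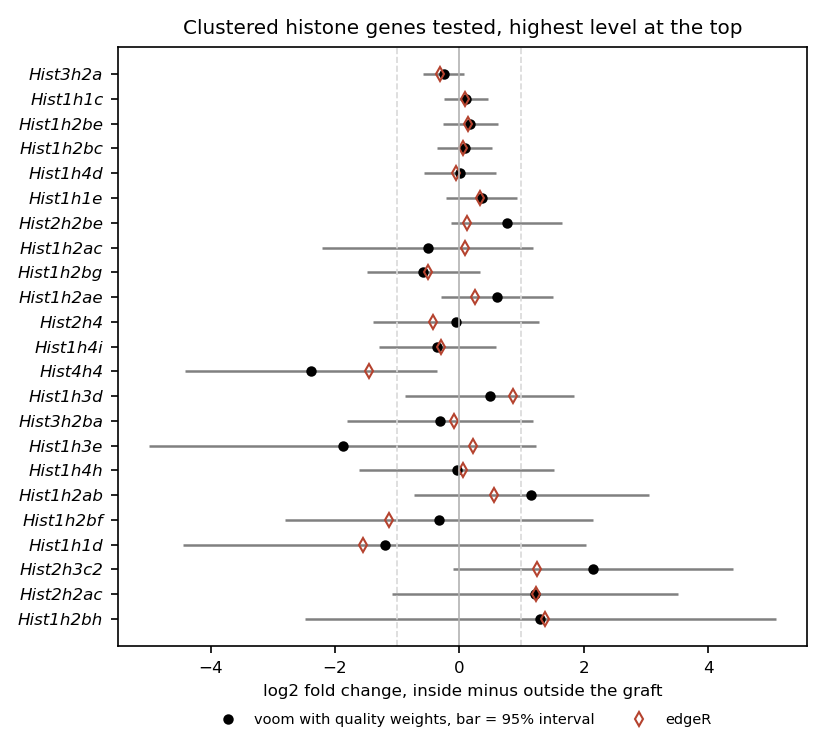
Log2 fold change, inside minus outside, of the 23 members tested (horizontal axis), ordered from the highest mean level at the top, with voomWithQualityWeights estimates (dots) and their 95% intervals (bars) and edgeR estimates (diamonds). The 6 members at the top have intervals between the dashed lines at -1 and 1, and the intervals widen towards the members with few counts at the bottom, to -2.49 to 5.09 in Hist1h2bh.

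Linker histones bind the DNA between nucleosomes and help to compact chromatin. Hist1h1c (chr13:23738808-23740367), which encodes H1.2 and of which 93.3% was unique, measured 35.9, 41.6 and 31.4 CPM in inside graft 1, 2 and 3, and 37.5, 31.4, 31.0 and 37.0 CPM in outside graft 1 to 4. Its groups overlapped, and its means were 36.3 ± 5.11 (SD, n = 3) and 34.2 ± 3.48 CPM (SD, n = 4). The log2 fold change was 0.10 with a 95% interval of -0.24 to 0.45 and an adjusted P of 0.865 with voomWithQualityWeights. Hist1h1e, which encodes H1.4, measured 9.73, 10.9 and 10.2 CPM inside, and 5.71, 12.01, 7.04 and 7.82 CPM outside. The 3 inside libraries lay close together within the range of the outside libraries, and the log2 fold change was 0.36 (-0.21 to 0.93), with an adjusted P of 0.658. The third H1 gene tested, Hist1h1d (H1.3), had no count in outside graft 1 and at most 1.74 CPM elsewhere, and its log2 fold change of -1.20 had an interval of -4.45 to 2.04.

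H2A and H2B form the dimers that flank the H3-H4 core of the nucleosome. Hist3h2a (chr11:58954685-58956830) had the highest mean of all members in CPM and was 99.2% unique. It measured 35.2, 30.5 and 32.9 CPM inside, and 48.3, 35.9, 37.1 and 41.4 CPM outside. All inside libraries lay below all outside libraries, 35.2 against 35.9 CPM at the closest, and the means were 32.9 ± 2.34 (SD, n = 3) and 40.7 ± 5.62 CPM (SD, n = 4). The difference did not pass the test, with a log2 fold change of -0.25 (-0.58 to 0.08) and an adjusted P of 0.577 with voomWithQualityWeights, and the 2 groups stayed apart under all 4 scalings of the libraries. Its model overlaps Trim17 on the same strand and Gm44313 on the other. Hist1h2ac measured 0.785, 4.22 and 8.85 CPM inside, and 4.43, 3.83, 1.89 and 7.09 CPM outside, so the inside libraries held both its lowest and its highest value. Its log2 fold change was -0.51 (-2.21 to 1.19), with an adjusted P of 0.866. Hist1h2ae measured 4.04, 3.91 and 5.06 CPM inside, and 6.56, 2.27, 1.85 and 3.89 CPM outside. Its inside values fell within the outside range, with a log2 fold change of 0.61 (-0.30 to 1.51) and an adjusted P of 0.627.

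H2B gave the largest part of the histone counts, 36.9%. Hist1h2be (chr13:23583670-23621124) measured 34.2, 38.8 and 25.3 CPM inside, and 32.5, 28.4, 23.9 and 34.2 CPM outside, and the groups overlapped. Its log2 fold change was 0.18 (-0.26 to 0.62), with an adjusted P of 0.802. One transcript of Hist1h2be reaches into Hist1h1e. With their counts summed, a choice made after the data were seen, the log2 fold change was 0.21 with an adjusted P of 0.711, but a read in the overlap that was counted for neither gene is missing from the sum too. Hist1h2bc measured 31.3, 39.1 and 24.5 CPM inside, and 27.2, 37.6, 24.9 and 31.3 CPM outside. It also overlapped, with a log2 fold change of 0.09 (-0.36 to 0.53) and an adjusted P of 0.921. It was 72.9% unique, and shared 21.35% of its windows with Hist1h2bg. Hist2h2be, 100% unique, ranged widely outside, at 16.6, 7.74, 3.22 and 5.99 CPM, and measured 11.8, 8.97 and 6.61 CPM inside. Its log2 fold change was 0.76 (-0.13 to 1.65) with voomWithQualityWeights (adjusted P 0.506) but 0.12 with edgeR (adjusted P 0.974), and outside graft 1, which holds the highest value, had the lowest quality weight, 0.448. Hist1h2bg measured 3.45, 3.55 and 3.16 CPM inside, and 3.74, 3.25, 4.35 and 7.90 CPM outside. The inside libraries were alike and 1 outside library stood higher, and the log2 fold change was -0.58 (-1.49 to 0.33), with an adjusted P of 0.651.

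H3 and H4 form the core tetramer of the nucleosome. Hist1h4d (chr13:23581598-23582735) measured 17.98, 23.4 and 32.0 CPM inside, and 28.4, 31.2, 16.9 and 24.8 CPM outside. The groups covered the same range, with a log2 fold change of 0.01 (-0.57 to 0.59) and an adjusted P of 0.992. Hist2h4 measured 1.18, 5.37 and 2.23 CPM inside, and 8.22, 3.83, 1.61 and 2.11 CPM outside, with a log2 fold change of -0.06 (-1.39 to 1.28) and an adjusted P of 0.986. Hist1h4i measured 1.37, 3.02 and 2.74 CPM inside, and 3.74, 2.40, 2.90 and 2.59 CPM outside, with a log2 fold change of -0.36 (-1.30 to 0.58) and an adjusted P of 0.817. Both overlapped between the groups, and in both inside graft 1 was the lowest library.

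Hist4h4 (chr6:136801553-136804415), the single gene of its cluster, lies just outside the 12 members with the highest means and is described because its values stood apart. It measured 0.0785, 1.95 and 1.85 CPM inside, and 5.55, 2.89, 3.02 and 2.67 CPM outside. All inside libraries lay below all outside libraries, and inside graft 1 held only 2 counts. The log2 fold change was -2.39 (-4.42 to -0.35) with an unadjusted P of 0.0254 and an adjusted P of 0.314 with voomWithQualityWeights, and -1.45 with an adjusted P of 0.652 with edgeR. Without inside graft 1 the log2 fold change was -0.65, with an adjusted P of 0.747, so the size of the difference rests on that library.

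**Figure D3:**
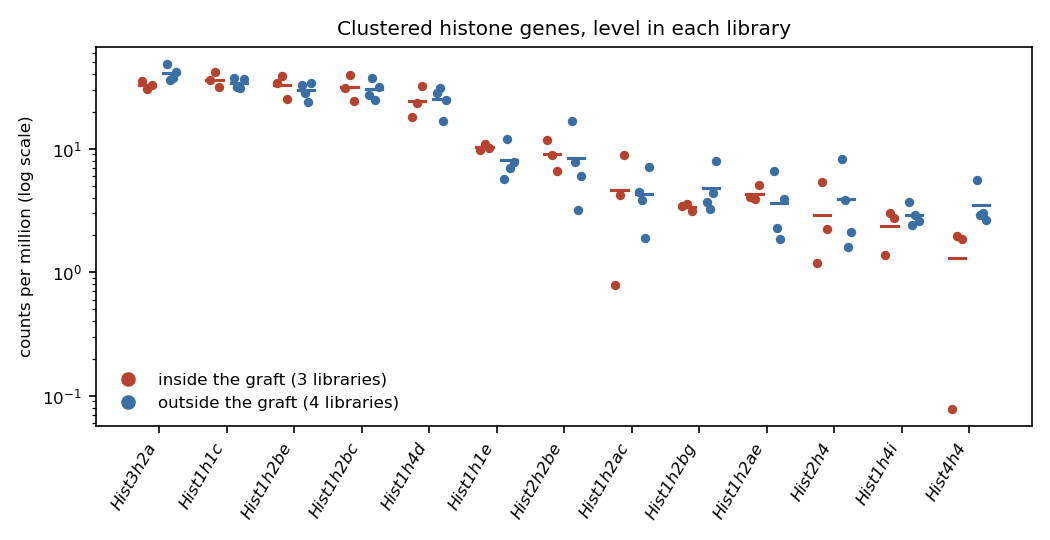
CPM (vertical axis, log scale) of the 12 members with the highest means and Hist4h4 in each of 3 inside (red) and 4 outside libraries (blue), with the mean of each group as a line. The groups overlap in all but Hist3h2a and Hist4h4, where every red point lies below every blue point, and inside graft 1 is lowest in Hist4h4 at 0.0785 CPM.

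The other 10 members tested had few counts, with means over all libraries from 0.269 to 2.38 CPM. Hist1h3d was the highest H3 gene, at 1.14, 5.86 and 2.65 CPM inside, and 1.49, 1.601, 1.09 and 2.84 CPM outside, and its log2 fold change was 0.49 (-0.87 to 1.85). Hist1h3e, with no count in inside graft 1, had a log2 fold change of -1.88 with voomWithQualityWeights and 0.22 with edgeR. Hist2h3c2, which shares 62.6% of its windows with Hist2h3c1, had the largest positive estimate, 2.15 (-0.10 to 4.40), with an adjusted P of 0.436. Divided by the length of the model, the order of mean levels changed, to 26.7 CPM per kilobase for Hist1h2bc, 22.5 for Hist1h1c, 21.9 for Hist1h4d and 17.4 for Hist3h2a, with Hist1h2be at 6.98 on its model of 4446 bases.

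The summed level of all 69 members did not differ between the groups beyond the spread of libraries. It was 197, 233 and 201 CPM inside, and 237, 213, 166 and 219 CPM outside, or 211 ± 19.9 (SD, n = 3) against 209 ± 30.4 CPM (SD, n = 4). By class the means inside and outside were 48.1 ± 4.95 and 43.1 ± 3.599 CPM for H1, 43.7 ± 4.82 and 49.6 ± 8.57 CPM for H2A, 79.5 ± 17.4 and 75.5 ± 11.7 CPM for H2B, 5.62 ± 3.48 and 3.31 ± 1.44 CPM for H3, and 33.5 ± 10.7 and 37.1 ± 9.47 CPM for H4. In every class the range of the inside libraries overlapped that of the outside libraries. In bulk samples fewer cells of a type and less RNA per cell cannot be told apart.

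The short models, which hold few counts, are described here without a test. Summed over 42 short models, levels were 6.12, 5.86 and 6.53 CPM inside, and 4.16, 4.98, 2.33 and 2.71 CPM outside, from 132 to 156 counts per inside and 58 to 112 per outside library. The inside libraries all stood above the 4 outside ones, and the ratio of the means was 1.74. Hist1h1a and Hist1h1b made up 46.4% of the difference between the means. At least 1 count was found for 23, 25 and 18 short models inside, and for 12, 16, 12 and 15 outside. The total counts of the libraries overlap between the groups, but outside graft 1 had the fewest. For the 27 long models the ratio of the means was 0.996.

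Hist1h1b, which encodes H1.5 and is unique over 100% of its windows, had the most counts of any short model below the filter and was singled out after its values were seen. It had 35, 7 and 40 counts inside, and 0, 0, 0 and 8 outside. Inside graft 2 and outside graft 4 were alike, so the groups overlapped. Hist1h1a (H1.1), also 100% unique, had 4, 9 and 0 counts inside, and 0, 0, 1 and 0 outside. Of the 30 members below the filter with a count, 2 (6.67%) had more raw counts in every inside than in any outside library, against 1.23% of all genes with a count that failed the filter. They were Hist1h3i with 11, 6 and 11 against 0, 4, 2 and 3, and Hist1h2bp with only 1, 2 and 1 against 0 in all 4, and 0 members had fewer, against 0.512%. The background was not matched to the members in number of counts, and a gene with fewer than 3 counts cannot be higher in every inside library. Hist1h3i is unique over only 21.7% of its windows. Hist1h4c, with a long model, had 9, 8 and 75 counts inside, and 6, 16, 8 and 5 outside, so that inside graft 3 alone stood high. With no filter on low counts 53 members were tested, of which 0 passed an adjusted P of 0.05 with voomWithQualityWeights or edgeR, against 0.762% and 1.24% of the 29525 genes then tested. An unadjusted P below 0.05 was reached by 5 and 1 of the 53, against 9.79% and 8.75% of all genes.

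Genes that act with the clustered histones were described from lists, with the share of calls given above as background. Of 13 histone mRNA processing factors tested 0 passed an adjusted P of 0.05 with voomWithQualityWeights or edgeR, and 1 and 0 had an unadjusted P below 0.05. The median log2 fold change was -0.04 with voomWithQualityWeights, and 5 were higher inside. The 3 with the highest means were Cpsf3, the endonuclease that cuts histone pre-mRNA, with -0.12, Upf1, a helicase of histone mRNA decay, with -0.03, and Srrt, a partner of the cap-binding complex, with -0.25. Slbp, named here because it binds the stem-loop, measured 56.2, 42.8 and 82.2 CPM inside, and 66.2, 66.8, 55.1 and 57.6 CPM outside, with a log2 fold change of -0.04 and an adjusted P of 0.969. Among 12 histone chaperones 0 passed either test, 4 and 3 had an unadjusted P below 0.05, and the median was 0.16 with 9 higher inside. Rbbp4, Hat1 and Nap1l1 had the highest means in that list, with log2 fold changes of -0.10, 0.10 and 0.45.

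Among the non-clustered histones 1 of 9 tested passed, Cenpa, the H3 variant of centromeres. Cenpa rose inside, from 4.48, 8.32, 3.62 and 5.99 CPM outside to 16.7, 16.3 and 14.9 CPM, with a log2 fold change of 1.63 and an adjusted P of 0.0398 with voomWithQualityWeights, but 0.0933 with edgeR. With each fit 3 of 9 (33.3%), Cenpa, H2afz and H2afx, had an unadjusted P below 0.05, against 12.2% and 9.55% of all genes. The median of this list was 0.16 with voomWithQualityWeights, with 7 of 9 higher inside. Summed, the 11 non-clustered histones gave 803 to 873 CPM inside and 738 to 926 CPM outside, and the groups overlapped.

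Of 24 DNA replication genes 0 passed either test, and 11 with voomWithQualityWeights and 10 with edgeR had an unadjusted P below 0.05. With voomWithQualityWeights 22 were higher inside, with a median log2 fold change of 0.75. Mcm3 and Mcm6, subunits of the replicative helicase, and Rrm1, of ribonucleotide reductase, had the highest means, with 0.00, 0.43 and 0.41. Summed over the list, levels were 424, 364 and 523 CPM inside, and 309, 291, 302 and 318 CPM outside. Of 10 mitosis genes 2 rose inside with voomWithQualityWeights, Top2a, the topoisomerase that untangles replicated DNA, with 6.71 (adjusted P 0.0316), and Birc5, a subunit of the chromosomal passenger complex, with 3.02 (adjusted P 0.0482). With edgeR neither passed, with log2 fold changes of 3.496 and 2.352 and adjusted P of 0.356 and 0.174. Top2a ranged widely outside, at 0.107, 9.52, 0.0402 and 0.203 CPM, and measured 30.5, 25.8 and 27.3 CPM inside. All 10 mitosis genes were higher inside with voomWithQualityWeights, with a median of 2.72. The list summed to 126, 99.9 and 156 CPM inside, and 17.6, 42.4, 11.1 and 19.4 CPM outside. The groups did not overlap in the sums of either list, whereas those of the clustered histones did.

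**Figure D4:**
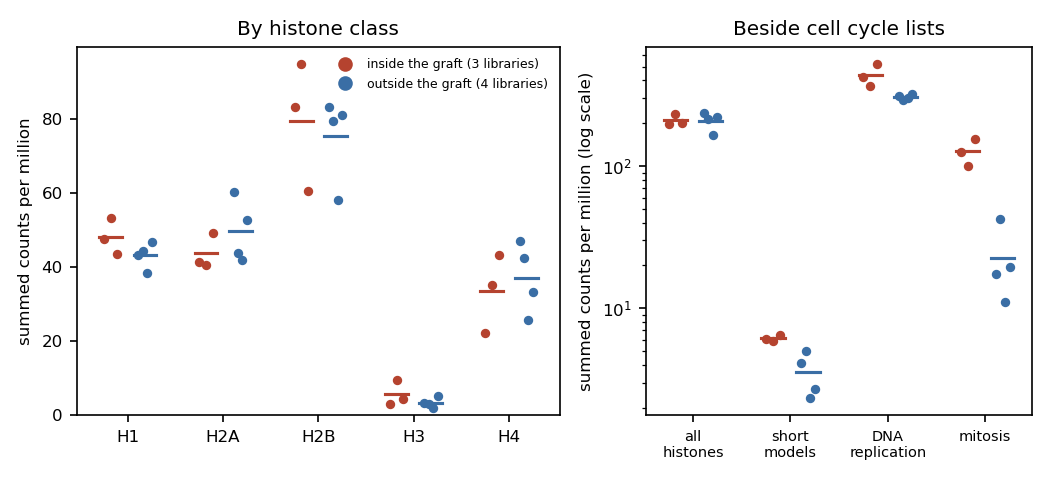
Summed CPM in each of 3 inside (red) and 4 outside libraries (blue) with group means as lines, on the left for the 5 classes of clustered histones (linear axis from 0) and on the right for all 69 clustered histones, the 42 short models and the DNA replication and mitosis lists (log scale). The groups overlap in every class and in the sum of all histones, and do not overlap in the short models and both lists.

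Markers of other cells differed in level between some libraries, although none of the cell type markers had an adjusted P below 0.05 with voomWithQualityWeights or edgeR. The 5 neutrophil markers summed to 4466, 466 and 9688 CPM inside, and 0.64, 0.311, 195 and 18.1 CPM outside. The 6 monocyte markers summed to 657, 81.3 and 1357 CPM inside, and 6.72, 14.99, 23.1 and 32.1 CPM outside, and the groups did not overlap in either sum. Most of the monocyte sum inside was Chil3, at 587, 67.6 and 1188 CPM inside and 0, 0, 14.97 and 1.38 CPM outside. Chil3 and Ly6c2 did not overlap between the groups, whereas Ccr2, Plac8, Vcan and Fn1 each overlapped. Of the neutrophil markers, S100a8, S100a9, Ly6g and Camp did not overlap. Retnlg did, at 1.37, 0 and 2.61 CPM inside and 0, 0, 3.10 and 0.81 CPM outside. The 7 markers of border-associated macrophages summed to 113, 16.7 and 121 CPM inside and 5.96 to 17.8 CPM outside, and those of neurons to 3.196 to 6.07 CPM inside and 3.25 to 10.8 CPM outside, and both overlapped. Of the 6 markers of T and B lymphocytes 4 had no count in any library. The microglia markers Cx3cr1 and P2ry12 lay lower in all inside than in all outside libraries, at 6195 to 6915 against 6953 to 8274 CPM (log2 fold change -0.20) and at 4358 to 5950 against 6055 to 7440 CPM (log2 fold change -0.50), with adjusted P of 0.357 and 0.0854 with voomWithQualityWeights. Csf1r, at 11208 to 12528 CPM inside and 11314 to 14613 CPM outside, overlapped. The part of other cells in the counts of short models, Hist1h1b, Cenpa and both cell cycle lists was not tested.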

How the data were processed

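Members and lists were chosen with earlier results of these data known. The authors primed cDNA with oligo(dT), aligned single reads with STAR 2.7.2a to GRCm38 with GENCODE M21 and deposited the unnormalized counts of each gene name that featureCounts 1.6.2 gave, without strand and without reads that align to several places. From these counts 15257 genes passed filterByExpr by group, were scaled with TMM and were tested with limma 3.58.1 (voomWithQualityWeights, the test of the study's methods) and edgeR 4.0.16 (glmQLFit, robust=FALSE) in R 4.3.3, with Benjamini-Hochberg adjustment over all 15257 genes. The threshold was an adjusted P of 0.05, with 0.01 as an alternative, and DESeq2 1.42.0 was another test. CPM are on TMM-scaled totals. Sums and medians over lists are descriptions. The gene models came from GENCODE M21 of GRCm38, and the limit of 100 bases for a long model was set after distances were seen. The deposited table's length column gave levels per kilobase. Named were the 12 members with the highest means and those past 0.05, and in each list the genes past 0.05 or else the 3 with the highest means. PCR copies are not independent molecules. Scripts were tested on simulated data. One microglia marker is not reported here.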

Additional observations from a re-analysis of the deposited data

Results flagged for a closer look

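Of 29 values examined in the 4 outside libraries, 23 members and 6 sums, 2 held a library far from the other three by Dixon's test, against 1.45 that chance would give. Hist4h4 was 5.55 CPM in outside graft 1, while the other outside libraries lay between 2.67 and 3.02 CPM. The summed level of the H2B genes was 58.1 CPM in outside graft 3, while the others lay between 79.5 and 83.4 CPM. Groups of 3 libraries were not examined in this way.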

How the results depend on the processing

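In all 34 alternatives 0 clustered histones were called, with other scalings, filters, tests, weights and thresholds and with each library left out. A setting run with both voomWithQualityWeights and edgeR counts once for each among the 34, and the same DESeq2 fit counts under both. At most 5 members had an unadjusted P below 0.05 in an alternative. The median log2 fold change of the members was 0.53 with no filter on low counts, where 53 members are included, and ran from -0.077 to 0.302 with each library left out, highest without inside graft 1. Over the short models only, a choice made after the data were seen, the log2 ratio of summed CPM was 0.798 for all members, 3.85 for H1, 0.926 for H2A, 0.141 for H2B, 0.992 for H3 and 0.052 for H4, against 0.01, 0.16, -0.18, 0.08, 0.76 and -0.15 over all models. The value for H1 rests on Hist1h1a and Hist1h1b alone, with 39, 16 and 40 counts inside, and 0, 0, 1 and 8 outside. The sign of 12 of 23 members held in every alternative in which they were tested, Hist3h2a and Hist4h4 among them. Stricter filters tested fewer members, and with at least 10 counts in every library only 13 were tested, without Hist4h4.

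The sign turned in the other 11, and no adjusted P of theirs passed. Hist1h4d was -0.034 with library size alone, -0.022 with no filter, -0.033 with DESeq2, -0.045 with voom without quality weights and -0.0013 with the replicate block. Hist1h4h was 0.070 with DESeq2 and 0.102 without quality weights. Hist1h3e was 0.235 and Hist1h2ac 0.120 with DESeq2. With the replicate block Hist3h2ba was 0.024, Hist1h3e 1.12 and Hist1h2ac 0.713. With each library left out Hist2h4 ran from -0.572 to 0.532, Hist3h2ba from -0.911 to 0.292, Hist1h4i from -0.512 to 0.069, Hist1h4h from -0.247 to 0.167, Hist1h3e from -3.07 to 0.511, Hist1h2bf from -1.29 to 0.062, Hist1h3d from -0.0092 to 1.19, Hist1h4d from -0.277 to 0.268, Hist1h2ac from -1.10 to 0.703, Hist1h2bc from -0.092 to 0.237 and Hist1h1c from -0.0045 to 0.194.

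Calls in the lists moved more. DESeq2 called 5 mitosis genes, 2 of DNA replication, 1 chaperone and 1 non-clustered histone, and with no filter edgeR and voomWithQualityWeights each called 5 mitosis genes, 1 of DNA replication, 1 chaperone and 1 non-clustered histone. With at least 10 counts in every library voomWithQualityWeights called 3 of 5 mitosis genes tested, 2 chaperones and 1 gene of DNA replication, and edgeR 1 mitosis gene and 1 non-clustered histone. Of mitosis genes voomWithQualityWeights called 1 with library size alone, 1 with a mean of at least 0.5 CPM, and 0 without quality weights or at 0.01, and under the last pair it called 0 non-clustered histones. With each library left out it called 0 to 4 mitosis genes, 0 to 2 chaperones, 0 to 1 genes of DNA replication and 0 to 1 non-clustered histones, and edgeR 0 to 2 mitosis genes. The cause of these moves was not tested.

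The labels number the libraries alike in both groups. Deviations of inside and outside libraries with the same number correlated at -0.03, 0.07 and 0.06, and 3 of 6 libraries correlated best with their own number. Correlations this weak cannot tell whether libraries of the same number came from the same mouse. With the replicate block, which leaves out outside graft 4, 0 histones were called, the median of the members was 0.195, and voomWithQualityWeights called 1 mitosis gene, 2 of DNA replication, 1 chaperone and 0 non-clustered histones.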
